A study of Homo sapiens with 6 samples.

Results

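The genes described here bring pyruvate into the mitochondrial matrix, feed it into the citric acid cycle, run the cycle and carry its acids and reducing power across the inner membrane. They were chosen as 43 gene names given as a list, and all 43 were among the 79172 gene names counted in the series. Of these, 41 passed the filter on low counts, against 16734 gene names in the whole table. RNA of Huh7 cells, a line grown from a human liver carcinoma, was sequenced in 3 libraries of cells overexpressing HK1, the gene of hexokinase 1, and 3 libraries of control cells. The comparison asks how raised HK1 affects these carcinoma cells. All 6 libraries share the cell line and carry no other labelled allele or agent. The sources used here do not state how HK1 was introduced, whether the cells were a pool or a clone, or what the controls received. Nothing in the labels ties replicates to separate cultures, so p-values measure only the spread between these libraries, which may be technical.

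Glycolysis ends in pyruvate, which crosses the inner membrane through the MPC1 and MPC2 carrier and is turned into acetyl-CoA by the pyruvate dehydrogenase complex. Kinases (PDK) switch that complex off by phosphorylation and phosphatases (PDP) switch it on again. The cycle then oxidises acetyl-CoA, and carriers, malate dehydrogenases and aspartate aminotransferases form shuttles that move electrons from cytosolic NADH into the matrix. Hexokinase acts at the head of glycolysis, well upstream of all of them.

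HK1 itself separated the groups completely. The gene (chromosome 10, 69269984 to 69401884, hg38, as are all gene positions below) had 9723, 10602 and 11101 counts in HK1-overexpressing libraries, against 13, 15 and 13 in control libraries. Library totals ran from 19607663 to 20823072 counts in HK1-overexpressing libraries and from 16771835 to 20071846 in controls. Control libraries differed more among themselves: the median SD of log2 CPM across replicates (CPM, a count as a share of its TMM-scaled library total) was 0.073 in HK1-overexpressing and 0.122 in control libraries. Over the 41 tested members it was 0.0305 in HK1-overexpressing and 0.0768 in control libraries. Of 10 hepatocyte genes, among them ALB and AFP, all 10 had counts in every library. Their summed level was 10500 to 10850 CPM in HK1-overexpressing and 13540 to 14460 CPM in control libraries. The 2 hepatocyte transcription factors among them differed. HNF4A averaged 156.6 CPM in HK1-overexpressing and 155.3 CPM in control libraries (log2 0.01). FOXA2 was lower without overlap, at 63.5 CPM in HK1-overexpressing and 75.3 CPM in control libraries (log2 -0.25, edgeR adjusted p = 0.0141). Of 5 leukocyte, 4 endothelial and 6 fibroblast and stellate genes, 3, 1 and 4 had counts in every library. Summed leukocyte markers were 46.8 to 51.4 CPM in HK1-overexpressing and 64.5 to 74.5 CPM in control libraries, and LYZ made up 42.9 to 48.1 CPM of it in HK1-overexpressing and 61.0 to 71.1 CPM in control libraries. The leukocyte genes PTPRC and CD3E had at most 3 counts in any library. Endothelial markers summed to 4.54 to 5.41 CPM in HK1-overexpressing and 4.03 to 6.26 CPM in control libraries, with CDH5 and KDR at 0 in every library. Fibroblast and stellate markers summed to 18.9 to 22.1 CPM in HK1-overexpressing and 14.6 to 15.9 CPM in control libraries, and COL1A2 was most of it. COL3A1 averaged 1.82 CPM in HK1-overexpressing and 2.53 CPM in control libraries, and PDGFRB 0.305 CPM in HK1-overexpressing and 0.544 CPM in control libraries, so both lay the other way from the sum. The part of these shifts in the results below was not tested. In bulk RNA, fewer cells of a kind and less RNA per cell cannot be told apart.

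Of the 41 tested members, 7 changed in HK1-overexpressing cells, 2 higher and 5 lower, which is 17.1%, against 8.02% of all tested genes (quasi-likelihood test of edgeR, p adjusted by Benjamini-Hochberg over all tested genes, below 0.05). Over all genes 3.87% were called higher and 4.15% lower. The members were chosen with earlier results of these data known, so 17.1% against 8.02% is a description and not a test. When only genes with a mean of at least 5 CPM were tested, which all 41 reach, the same 7 were called and the share over all genes was 11.1%. The members that fell were both subunits of the pyruvate carrier, MPC1 and MPC2, the mitochondrial isocitrate dehydrogenase IDH2, fumarase FH and the cytosolic malic enzyme ME1. The members that rose were the pyruvate dehydrogenase kinase PDK1 and the aspartate-glutamate carrier SLC25A12. All changes were modest, between -0.36 and 0.57 on the log2 scale. The median log2 change was -0.03 over the members, with 16 above and 25 below 0, and 0.0063 over all tested genes. The median size of change was 0.0679 over the members, 0.123 over all tested genes and 0.0964 over those with a mean of at least 5 CPM. Groups did not overlap for 17 of the 41, 7 higher and 10 lower, against 27.8% of all tested genes. An unadjusted p below 0.05 was reached by 13 of the 41, against 21.9% of all tested genes.

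**Figure D1:**
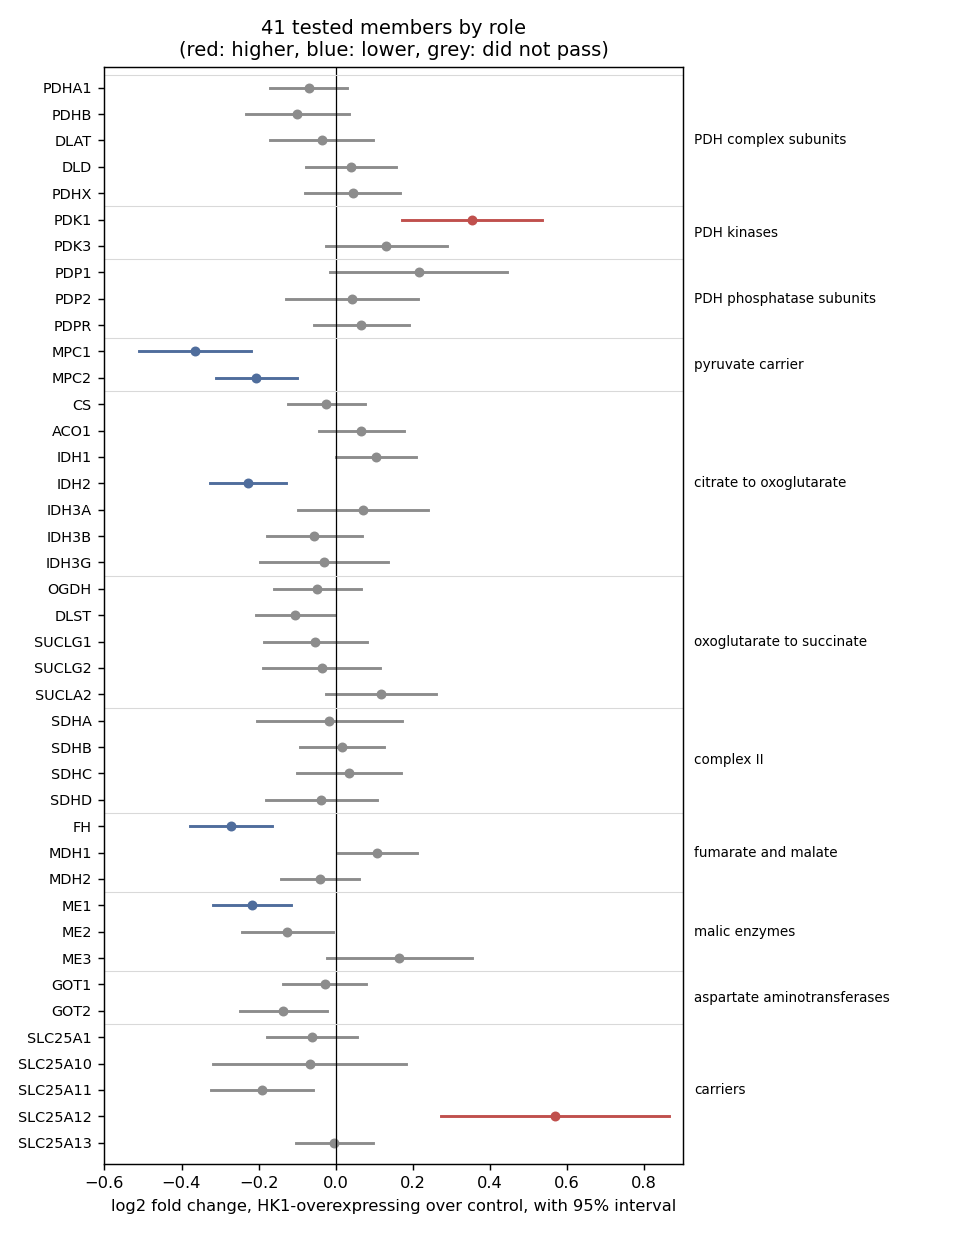
Log2 fold change (HK1-overexpressing over control) of the 41 tested members with 95% intervals from edgeR, grouped by role from top to bottom. Red marks the 2 members called higher, blue the 5 called lower and grey the 34 that did not pass; the pyruvate carrier lies wholly to the left of 0, and the pyruvate dehydrogenase complex and complex II all straddle it.

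The promoters of 3 called members are shown because MPC1 and FH kept their calls under every alternative tried, and because PDK1 is a textbook target of hypoxia-inducible factor. They run from 250 bases before to 50 bases after the start in RefSeq (GRCh38.p14), which held entries for 40 of the 43 members and all 7 called. Where a gene had more than 1 entry, as PDK1 did, the entry with most GENCODE 29 transcript starts within 100 bases was taken. Capitals mark GGGCGG (a GC box), CCAAT and ACGTG (a core bound by hypoxia-inducible factor) on either strand, so the reverse complement of each is in capitals as well. No marked motifs overlap in these windows.
MPC1 (chr6:166382891-166383190, minus strand): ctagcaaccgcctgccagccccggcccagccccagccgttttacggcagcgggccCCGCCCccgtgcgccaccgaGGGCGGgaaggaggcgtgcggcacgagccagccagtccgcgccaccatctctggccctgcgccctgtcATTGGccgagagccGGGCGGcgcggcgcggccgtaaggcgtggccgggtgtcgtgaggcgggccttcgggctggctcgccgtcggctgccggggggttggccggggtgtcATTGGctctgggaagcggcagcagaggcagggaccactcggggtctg
FH (chr1:241519706-241520005, minus strand): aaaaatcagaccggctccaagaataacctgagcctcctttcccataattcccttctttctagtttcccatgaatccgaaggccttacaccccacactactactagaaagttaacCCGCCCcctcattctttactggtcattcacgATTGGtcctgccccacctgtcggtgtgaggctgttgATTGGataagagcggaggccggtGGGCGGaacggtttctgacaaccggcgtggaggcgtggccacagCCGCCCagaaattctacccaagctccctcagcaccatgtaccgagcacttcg
PDK1 (chr2:172555840-172556139, plus strand): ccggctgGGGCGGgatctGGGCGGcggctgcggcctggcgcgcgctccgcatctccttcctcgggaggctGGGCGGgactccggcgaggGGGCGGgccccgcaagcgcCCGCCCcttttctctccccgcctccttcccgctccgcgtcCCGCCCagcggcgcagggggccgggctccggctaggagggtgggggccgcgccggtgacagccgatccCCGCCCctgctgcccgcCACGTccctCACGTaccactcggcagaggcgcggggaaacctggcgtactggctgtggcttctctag
MPC1 and FH each held 3 GGGCGG and 2 CCAAT matches and 0 of ACGTG. PDK1 held 7 GGGCGG, 0 CCAAT and 2 ACGTG matches. GCGTG, which hypoxia-inducible factor also binds, was not searched. It or its reverse complement occurs unmarked in the windows of MPC1, FH, IDH2, ME1 and SLC25A12. The windows of the other called members were searched for the same 3 motifs. SLC25A12, which rose, held 0 ACGTG and 0 CCAAT. IDH2 held 0 of all 3 motifs, ME1 held 1 GGGCGG and 0 of the others, and MPC2 held 3 GGGCGG, 1 CCAAT and 0 ACGTG. The IDH2 window (90100572 to 90100871, minus strand, 48.3% G or C) lies inside the gene, whose annotated exons reach 90102477. The PDK1, MPC2 and SLC25A12 windows also lie inside the outermost annotated ends of their genes. Motifs near starts further out were not examined. Among all 35116 promoter windows of the same length, 45.0% held GGGCGG, 34.6% CCAAT and 21.4% ACGTG on either strand. These matches describe the windows and are not measured binding. HIF1A, which encodes a subunit of hypoxia-inducible factor, averaged 791.6 CPM in HK1-overexpressing and 710.4 CPM in control libraries. Its groups did not overlap, and it was not called (log2 0.16, edgeR adjusted p = 0.385). A part of this factor in the rise of PDK1 was not tested.

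The pyruvate carrier was lower in HK1-overexpressing cells in both of its subunits, which work as a heterodimer. MPC1 (chromosome 6, 166364919 to 166383013) had 55.6, 49.3 and 53.6 CPM in HK1-overexpressing libraries, against 63.0, 70.7 and 70.6 CPM in control libraries. Every HK1-overexpressing library lay below every control. MPC1 fell by 22.3%, a log2 change of -0.36 (SE 0.0677, edgeR adjusted p = 0.00397). MPC2 (chromosome 1, 167916675 to 167937072) had 131.4, 131.1 and 129.3 CPM in HK1-overexpressing libraries, against 145.3, 153.0 and 153.7 CPM in control libraries. The HK1-overexpressing libraries were again the lower ones, and closer together than the controls. MPC2 fell by 13.3%, a log2 change of -0.21 (SE 0.0492, edgeR adjusted p = 0.0185). MPC2 lost its call with the replicate block (edgeR adjusted p = 0.0538), without any 1 HK1-overexpressing library and without control replicate 3 (the largest edgeR adjusted p was 0.114). Of its exon bases, 21.8% are shared with the neighbouring DCAF6, and fragments there may be missing from the counts or belong to the neighbour.

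Pyruvate dehydrogenase itself did not pass in any subunit, whereas PDK1, which phosphorylates and inactivates its E1 component, rose. PDHA1 and PDHB form E1, DLAT is the E2 acetyltransferase, DLD the E3 dehydrogenase and PDHX the protein that tethers E3. Their log2 changes ran from -0.10 to 0.04, and their 95% intervals together covered -0.23 to 0.17. PDHB, with the smallest p of the 5, had 48.2, 48.0 and 45.1 CPM in HK1-overexpressing libraries, against 52.2, 51.1 and 48.0 CPM in control libraries. The lowest control lay among the HK1-overexpressing libraries (log2 -0.10, edgeR adjusted p = 0.388). PDHA1 had no overlap, at 239.9 to 247.9 CPM in HK1-overexpressing and 248.3 to 261 CPM in control libraries, and a log2 change of -0.07 (edgeR adjusted p = 0.424).

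PDK1 (chromosome 2, 172555373 to 172608669) had 18.8, 16.8 and 17.8 CPM in HK1-overexpressing libraries, against 14.5, 12.9 and 14.4 CPM in control libraries. The groups were apart, with the lowest HK1-overexpressing library above the highest control. PDK1 rose by 27.7%, a log2 change of 0.35 (SE 0.0846, edgeR adjusted p = 0.0187). Of its exon bases, 3.35% overlap the antisense gene ITGA6-AS1, whose fragments cannot be told apart where strand was not used in counting. The call was lost with DESeq2 (adjusted p = 0.058), without HK1-overexpressing replicate 1 or 3 and without control replicate 3 (the largest edgeR adjusted p was 0.105). PDK3, another kinase of the complex, averaged 33.4 ± 2.27 CPM in HK1-overexpressing and 30.4 ± 1.66 CPM in control libraries (SD, n = 3 each), with overlap (log2 0.13, edgeR adjusted p = 0.328). PDK2, a widely expressed isoform, and PDK4, the one induced by fasting in liver and muscle, were near the limit of detection and were not tested. PDK2 had 1, 3 and 1 counts in HK1-overexpressing libraries, against 5, 3 and 7 in control libraries. PDK4 had 14, 15 and 10 counts in HK1-overexpressing libraries, against 10, 4 and 7 in control libraries. Neither was called when genes were tested without a filter.

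The phosphatase genes did not pass. PDP1, a catalytic subunit, had 13.9, 13.7 and 13.7 CPM in HK1-overexpressing libraries, against 13.8, 9.81 and 11.9 CPM in control libraries. Control replicate 1 sat within the HK1-overexpressing range and the other controls below it (log2 0.21, 95% interval -0.02 to 0.45, edgeR adjusted p = 0.265). Without control replicate 1 it was called higher (edgeR adjusted p = 0.027). PDP2, the other catalytic subunit, and PDPR, the regulatory one, changed by 0.04 and 0.07 on the log2 scale. PDPR has near-identical copies elsewhere in the genome and its counts are uncertain.

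**Figure D2:**
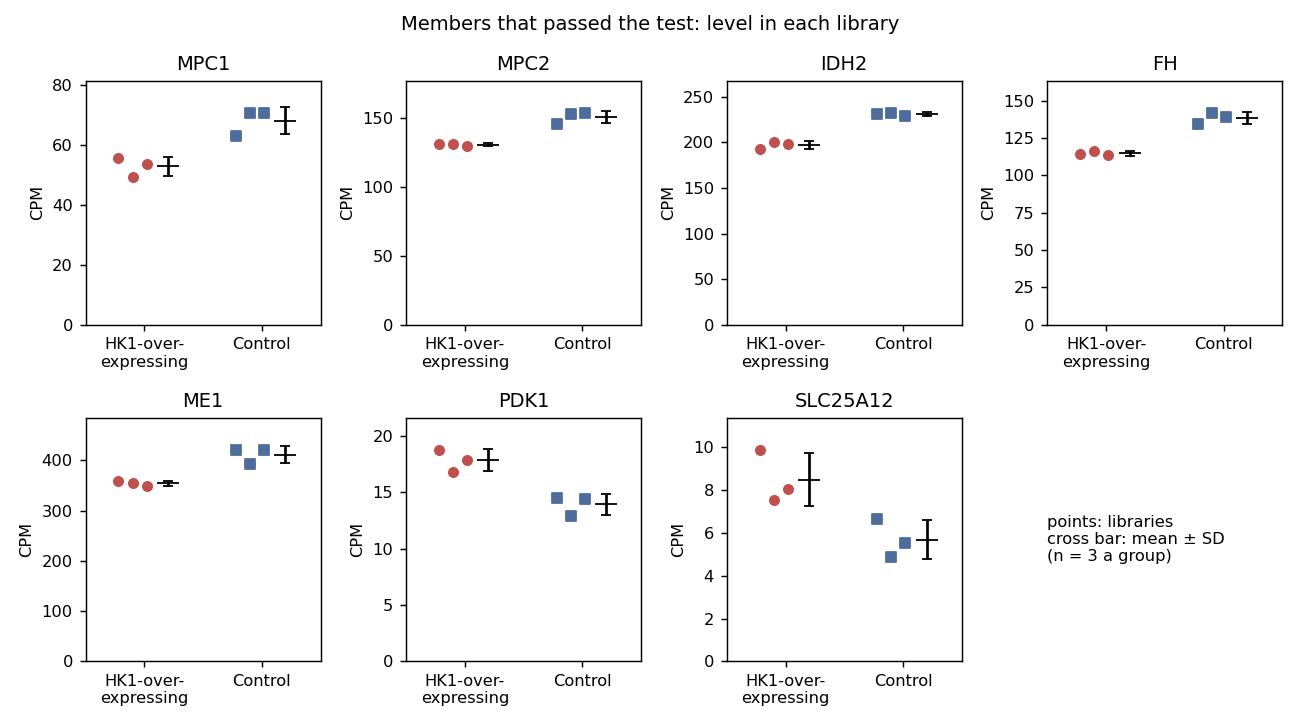
Level in CPM of the 7 called members, with 1 point a library and the mean ± SD beside the points (n = 3 a group). In each panel the 3 HK1-overexpressing libraries lie on 1 side of all 3 controls; MPC1, MPC2, IDH2, FH and ME1 are lower and PDK1 and SLC25A12 higher.

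In the first span of the cycle, from citrate to 2-oxoglutarate, 1 of 7 members changed, against 8.02% of all tested genes. It was the NADP-dependent mitochondrial enzyme IDH2. IDH2 (chromosome 15, 90083045 to 90102477) had 192.3, 200.2 and 198.7 CPM in HK1-overexpressing libraries, against 231.7, 232.5 and 228.5 CPM in control libraries. The gap between groups was several times the spread within either. IDH2 fell by 14.6%, a log2 change of -0.23 (SE 0.0462, edgeR adjusted p = 0.00713). The call was lost without HK1-overexpressing replicate 1 or 2 (edgeR adjusted p = 0.0779 and 0.0535). IDH1, the cytosolic NADP-dependent enzyme, was at 1205 to 1259 CPM in HK1-overexpressing and 1076 to 1190 CPM in control libraries. These ranges did not overlap, and the log2 change of 0.10 did not pass (edgeR adjusted p = 0.22). The 3 subunits of the NAD-dependent enzyme that drives the cycle, IDH3A, IDH3B and IDH3G, changed by 0.07, -0.06 and -0.03 on the log2 scale, with overlap in each. Citrate synthase, CS, changed by -0.02, and the cytosolic aconitase and iron regulator ACO1 by 0.07, neither of them called.

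From 2-oxoglutarate to succinate 0 of 5 members changed by edgeR, and 1, DLST, had an unadjusted p below 0.05. Over all tested genes these shares were 8.02% and 21.9%, so 5 members are too few to stand apart. No setting called any of the 5. DLST, the E2 succinyltransferase of the 2-oxoglutarate dehydrogenase complex, had 119.8, 119.3 and 122.7 CPM in HK1-overexpressing libraries, against 129.7, 129.0 and 130.4 CPM in control libraries. All HK1-overexpressing libraries were lower, by little (log2 -0.10, edgeR adjusted p = 0.223). OGDH, the E1 of that complex, and SUCLG1, the shared subunit of succinyl-CoA ligase, changed by -0.05 each. SUCLA2, the ATP-forming subunit of that ligase, was at 44.9 to 45.9 CPM in HK1-overexpressing and 38.6 to 44.5 CPM in control libraries (log2 0.12, edgeR adjusted p = 0.337). SUCLG2, its GTP-forming alternative, changed by -0.04.

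Complex II, which oxidises succinate and also belongs to the respiratory chain, gave 0 calls among its 4 subunits by edgeR, with 0 at an unadjusted p below 0.05 and 0 by DESeq2 or limma-voom. With 8.02% of all tested genes called by edgeR and 21.9% at an unadjusted p below 0.05, 4 subunits are too few to stand apart. SDHA is the flavoprotein, SDHB the iron-sulfur subunit, and SDHC and SDHD anchor them in the membrane. SDHD, with the smallest p, had 74.3, 76.8 and 68.2 CPM in HK1-overexpressing libraries, against 68.8, 78.2 and 78.2 CPM in control libraries. The groups overlapped over most of their range (log2 -0.04, edgeR adjusted p = 0.799). The sign of its change turned when libraries were scaled by their totals alone and without HK1-overexpressing replicate 3. The 95% intervals of the 4 together covered -0.21 to 0.17. SDHA has near-identical pseudogene copies, so its level is uncertain.

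Fumarase was the most clearly lowered enzyme of the cycle proper. FH (chromosome 1, 241497511 to 241519799), which hydrates fumarate to malate and is a known tumour suppressor in kidney, had 114.3, 116.3 and 113.4 CPM in HK1-overexpressing libraries, against 134.2, 141.8 and 139.3 CPM in control libraries. The highest HK1-overexpressing library was well under the lowest control. FH fell by 17.2%, a log2 change of -0.27 (SE 0.0497, edgeR adjusted p = 0.0036). The next enzyme, mitochondrial malate dehydrogenase MDH2, was at 308.1 to 313.8 CPM in HK1-overexpressing and 311.8 to 333.4 CPM in control libraries, with overlap (log2 -0.04, edgeR adjusted p = 0.668). Its cytosolic counterpart MDH1 was at 183 to 192 CPM in HK1-overexpressing and 170.2 to 177 CPM in control libraries. These ranges were apart, and the log2 change of 0.11 did not pass (edgeR adjusted p = 0.205).

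Of the malic enzymes, which turn malate into pyruvate, ME1 fell. ME1 (chromosome 6, 83210402 to 83431051), the cytosolic NADPH-forming enzyme of lipogenic cells, had 359.2, 355.8 and 348.5 CPM in HK1-overexpressing libraries, against 421.8, 392.5 and 420.7 CPM in control libraries. Control replicate 2 was nearest to the HK1-overexpressing group and still above it. ME1 fell by 13.9%, a log2 change of -0.22 (SE 0.0473, edgeR adjusted p = 0.0113). The call was lost without any 1 HK1-overexpressing library and without control replicate 3 (the largest edgeR adjusted p was 0.0887). ME2, the mitochondrial NAD-dependent enzyme, was at 76.7 to 81.4 CPM in HK1-overexpressing and 83.5 to 89.6 CPM in control libraries (log2 -0.13, edgeR adjusted p = 0.201). ME3, the mitochondrial NADP-dependent enzyme, was at 11.7 to 12.9 CPM in HK1-overexpressing and 10.4 to 11.4 CPM in control libraries (log2 0.17, edgeR adjusted p = 0.302). Neither showed overlap between groups.

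Among the shuttle genes only SLC25A12 passed under the main test. SLC25A12, also called aralar, and SLC25A13, citrin, both exchange matrix aspartate for cytosolic glutamate in the malate-aspartate shuttle, and citrin is the usual liver form. SLC25A12 (chromosome 2, 171783405 to 171999859) had 9.89, 7.52 and 8.07 CPM in HK1-overexpressing libraries, against 6.65, 4.88 and 5.53 CPM in control libraries. The groups did not overlap, and replicate 1 was the highest library in each. SLC25A12 rose by 48.3%, a log2 change of 0.57 (SE 0.138, edgeR adjusted p = 0.0199). The call was lost without HK1-overexpressing replicate 1 or 3 and without control replicate 3 (the largest edgeR adjusted p was 0.119). Its exons are also annotated on an alternate sequence, so that fragments matching both copies may be missing. SLC25A13 was at 155.0 to 160.3 CPM in HK1-overexpressing and 157.1 to 159.3 CPM in control libraries, with a log2 change of -0.0032 and a 95% interval of -0.10 to 0.10.

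The aminotransferases and the other carriers did not pass. GOT2, the mitochondrial aspartate aminotransferase, had 191.9, 189.3 and 192.2 CPM in HK1-overexpressing libraries, against 197.9, 223.3 and 209.2 CPM in control libraries. The HK1-overexpressing libraries lay close together and below all controls, which were spread (log2 -0.14, edgeR adjusted p = 0.138). Without control replicate 1 it was called lower (edgeR adjusted p = 0.0212). GOT1, the cytosolic enzyme, changed by -0.03 on the log2 scale. SLC25A11, the oxoglutarate-malate carrier of the same shuttle, was at 50.7 to 52.6 CPM in HK1-overexpressing and 56.3 to 63.3 CPM in control libraries (log2 -0.19, edgeR adjusted p = 0.0759). It was called lower without control replicate 1, with quality weights for libraries in limma-voom and with the gene length trend removed. The citrate carrier SLC25A1 and the dicarboxylate carrier SLC25A10 changed by -0.06 and -0.07, with overlap.

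The ratio of counts of 2 related members in the same library does not depend on library size or scaling, and 8 such pairs, chosen after the values were seen, were compared. With 3 libraries a group the exact two-sided permutation test cannot give a p below 0.1, so no pair could pass. IDH1 over IDH2 was 6.55, 6.08 and 6.07 in HK1-overexpressing libraries, against 5.002, 4.63 and 5.21 in control libraries (exact permutation p = 0.1, adjusted over the 8 pairs 0.114). MDH1 over MDH2 was 0.614, 0.622 and 0.583 in HK1-overexpressing libraries, against 0.546, 0.528 and 0.569 in control libraries. In both pairs the cytosolic member was relatively higher in every HK1-overexpressing library. GOT1 over GOT2 was 0.590 ± 0.00884 in HK1-overexpressing and 0.548 ± 0.0235 in control libraries (SD, n = 3 each; exact permutation p = 0.1), also without overlap. SLC25A12 over SLC25A13 was 0.0617, 0.0478 and 0.0521 in HK1-overexpressing libraries, against 0.0423, 0.0310 and 0.0347 in control libraries. PDK1 over PDK3 and SUCLA2 over SUCLG2 were higher, and MPC1 over MPC2 lower, without overlap and at the same exact permutation p. ME1 over ME2, also a cytosolic and a mitochondrial member, lay the other way on average, at 4.46 in HK1-overexpressing and 4.75 in control libraries. That pair overlapped, at 4.32 to 4.64 in HK1-overexpressing and 4.495 to 5.05 in control libraries (exact permutation p = 0.2).

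**Figure D3:**
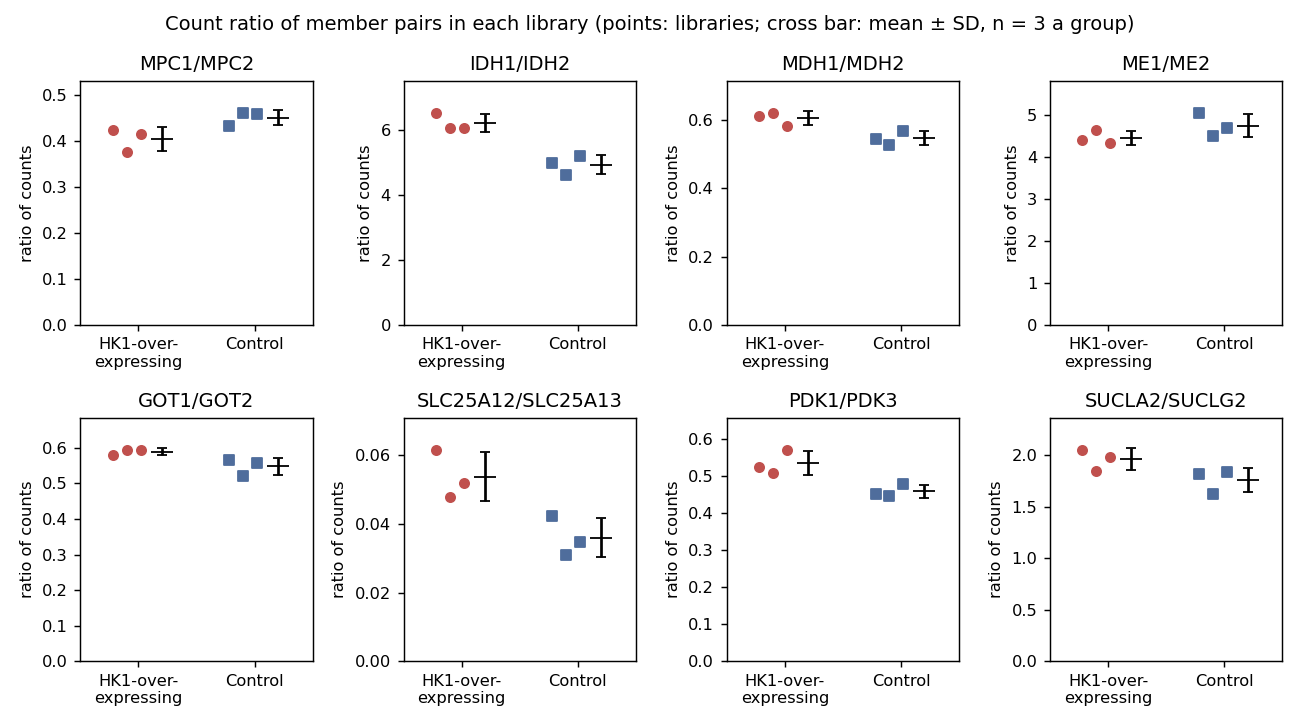
Ratio of the raw counts of 2 members within each library for 8 pairs, with 1 point a library and the mean ± SD beside the points (n = 3 a group). IDH1 over IDH2 averages 6.23 in HK1-overexpressing and 4.95 in control libraries, and ME1 over ME2 is the pair whose groups overlap.

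Levels per exon length let members be set against each other. IDH1 was highest, at 261.1 ± 5.97 CPM per kilobase in HK1-overexpressing and 242.9 ± 12.5 CPM per kilobase in control cells (SD, n = 3 each). SLC25A1 followed at 122.6 ± 1.86 in HK1-overexpressing and 128.0 ± 9.31 CPM per kilobase in control cells, then ME1 at 106.2 ± 1.64 and 123.3 ± 4.97 CPM per kilobase in HK1-overexpressing and control cells. With these lengths SLC25A1 and ME1 in control cells did not differ beyond their spread. Among the pyruvate dehydrogenase subunits, PDHA1 was highest, at 49.2 ± 0.816 CPM per kilobase in HK1-overexpressing and 51.6 ± 1.34 in control cells. PDHB was the lowest of them by these lengths, at 9.99 ± 0.361 in HK1-overexpressing and 10.7 ± 0.467 CPM per kilobase in control cells. SLC25A13 stood at 42.5 ± 0.712 CPM per kilobase in HK1-overexpressing and 42.5 ± 0.339 in control cells, far above SLC25A12 at 0.693 ± 0.102 in HK1-overexpressing and 0.464 ± 0.0731 in control cells. All 4 kinases were among the 5 lowest members in controls, with PDK2 last. These lengths take in every annotated exon, used or not, and for SLC25A12 both copies. With lengths from GENCODE 29 basic transcripts, 17 of the 43 lengths differed by over 1.5 times, IDH1 and SLC25A1 kept the first places, SDHB stood at rank 3 and ME1 at rank 4, PDHX was lowest of the pyruvate dehydrogenase subunits in place of PDHB, and PDK3 stood at rank 27 in place of 39. By those lengths SLC25A1 was at 143.5 and ME1 at 122.1 CPM per kilobase in control cells, a wider gap. FH moved from rank 24 to 11. SDHC went the other way, from rank 16 to 35, with 1960 bases in the deposited table and 13566 in GENCODE 29.

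**Figure D4:**
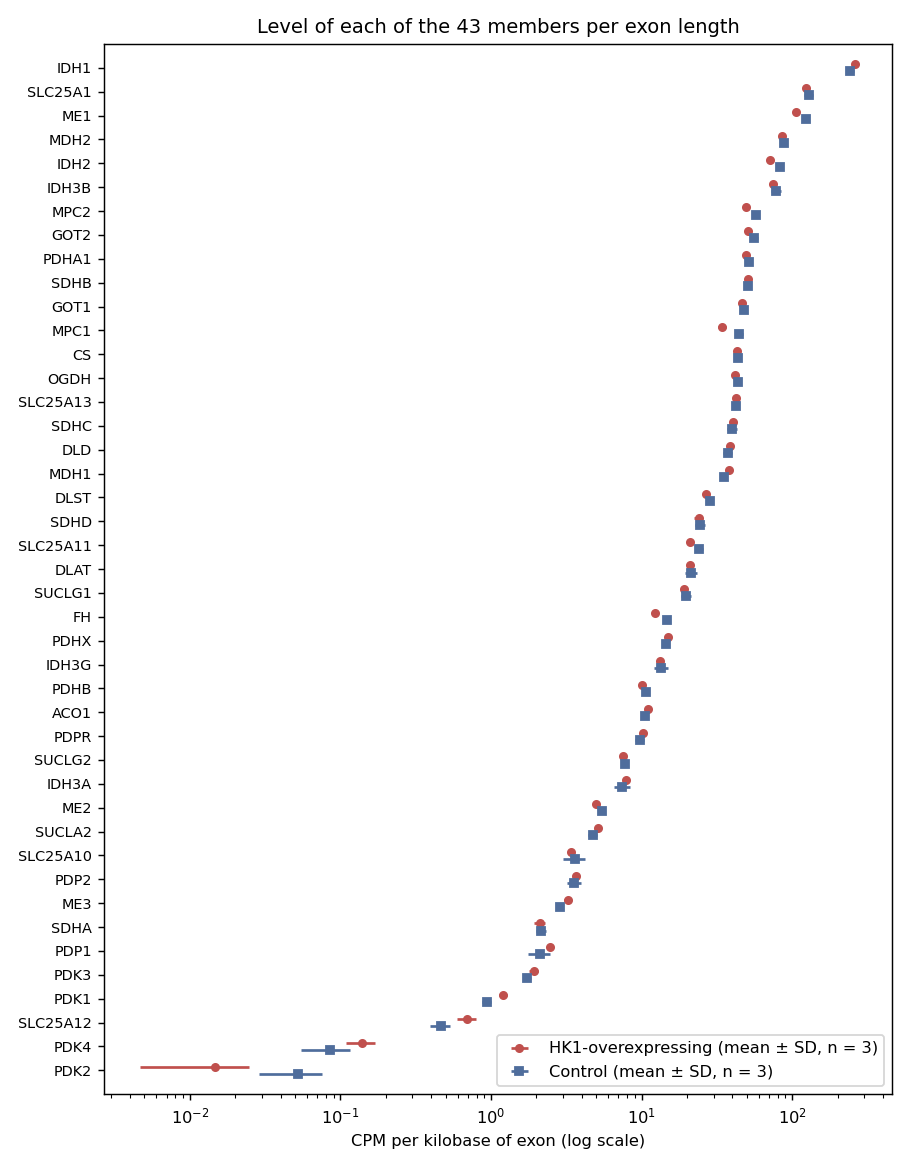
Level of each of the 43 members in CPM per kilobase of annotated exon on a log axis, mean ± SD of 3 libraries a group, ordered by the control level. IDH1, SLC25A1 and ME1 are at the top and the kinases PDK1, PDK3, PDK4 and PDK2 with SLC25A12 at the bottom.

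Around the cycle, 67 further genes were taken as lists of its supply, cofactors, sister complexes and regulators, of which 61 were tested, 3 rose and 2 fell. That is 8.2%, beside 8.02% of all tested genes. OAT, ornithine aminotransferase of glutamate metabolism, had 110.5, 111.9 and 111.0 CPM in HK1-overexpressing libraries, against 87.6, 79.3 and 84.1 CPM in control libraries (log2 0.41, SE 0.0544, edgeR adjusted p = 0.000308). The groups did not overlap, and control replicate 2 was the lowest library. Among 12 regulators, PPARGC1A, the coactivator PGC-1alpha of mitochondrial biogenesis, rose to 16.5 ± 1.01 CPM in HK1-overexpressing cells, against 12.6 ± 2.22 CPM in control cells (SD, n = 3 each; edgeR adjusted p = 0.0489). NRF1, a transcription factor of nuclear mitochondrial genes, fell to 18.9 ± 0.928 CPM in HK1-overexpressing cells, against 23.3 ± 0.624 CPM in control cells (edgeR adjusted p = 0.0214). Of 7 tested genes of lipoate-dependent sister complexes, 1, GLDC of the glycine cleavage system, fell to 48.6 ± 0.562 CPM in HK1-overexpressing cells, against 56.2 ± 2.28 CPM in control cells (edgeR adjusted p = 0.0419). PPARGC1A, NRF1 and GLDC each lost the call with DESeq2 (adjusted p = 0.0711, 0.0555 and 0.0667) and without several single libraries. GLDC also lost it with the replicate block, library totals only and no filter (edgeR adjusted p = 0.0892, 0.0968 and 0.0704). PPARGC1A also lost it with limma-voom and with no robust dispersion in edgeR (adjusted p = 0.0604 and 0.0618).

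In 5 of the lists edgeR called no gene, where 8.02% of all tested genes were called and 21.9% had an unadjusted p below 0.05. Lists of 4 to 9 tested genes are too short for 0 calls to set them apart. Lactate and pyruvate supply had 7 tested genes and 0 with an unadjusted p below 0.05. Its smallest p was that of PCK2, mitochondrial phosphoenolpyruvate carboxykinase, at 31.9 ± 0.544 CPM in HK1-overexpressing and 29.9 ± 1.64 CPM in control cells (SD, n = 3 each). Lipoate and cofactor supply had 9 tested genes, with IBA57, an iron-sulfur cluster factor, at 7.77 ± 0.252 in HK1-overexpressing and 9.18 ± 1.07 CPM in control cells (edgeR adjusted p = 0.195). Complex II assembly had 4, with SDHAF3 at 20.1 ± 1.16 in HK1-overexpressing and 21.2 ± 1.65 CPM in control cells. The glycerol phosphate shuttle and transhydrogenase had 4, with NNT at 91.9 ± 3.87 in HK1-overexpressing and 83.9 ± 9.17 CPM in control cells (edgeR adjusted p = 0.332), called higher without control replicate 1 (edgeR adjusted p = 0.0189). Citrate and acetate use had 9, with ACOT12, an acetyl-CoA hydrolase, at 1.59 ± 0.239 in HK1-overexpressing and 2.34 ± 0.588 CPM in control cells (edgeR adjusted p = 0.155), called lower in limma-voom with quality weights (adjusted p = 0.0487).

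Except for MPC1 and FH, the calls depended on the libraries or the setting used. Without 1 HK1-overexpressing library, MPC2 had log2 changes of -0.21 to -0.20. Its SE was then 0.0621 to 0.0659, against 0.0492 in the main test. MPC1 and FH were called under all 17 alternatives, with log2 changes between -0.41 and -0.32 for MPC1 and between -0.31 and -0.23 for FH. IDH2 kept its call in 15 of 17, SLC25A12 in 14, PDK1 and ME1 in 13 and MPC2 in 12. No called member changed sign under any of them. The same 7 were called with RLE size factors (8.10% of all genes called), library totals only (8.18%), no filter (3.99%), limma-voom (7.27%), no robust dispersion (7.24%) and without control replicate 2 (10.6%), and also with HK1 left out of the table. DESeq2 called 6, all but PDK1 (7.59% of all genes), and the replicate block 6, all but MPC2 (6.42%). Quality weights and removal of the length trend called 8, with SLC25A11 added (11.7% and 10.4%). Without HK1-overexpressing replicate 1 the members called were MPC1 and FH (3.23% of all genes). Without HK1-overexpressing replicate 2 they were MPC1, FH, PDK1 and SLC25A12 (3.13%), and without HK1-overexpressing replicate 3 they were MPC1, IDH2 and FH (3.50%). Without control replicate 1 there were 10, with PDP1 added to the higher and GOT2 and SLC25A11 to the lower members (13.1%). Without control replicate 3 there were 3, MPC1, IDH2 and FH (4.71%).

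**Figure D5:**
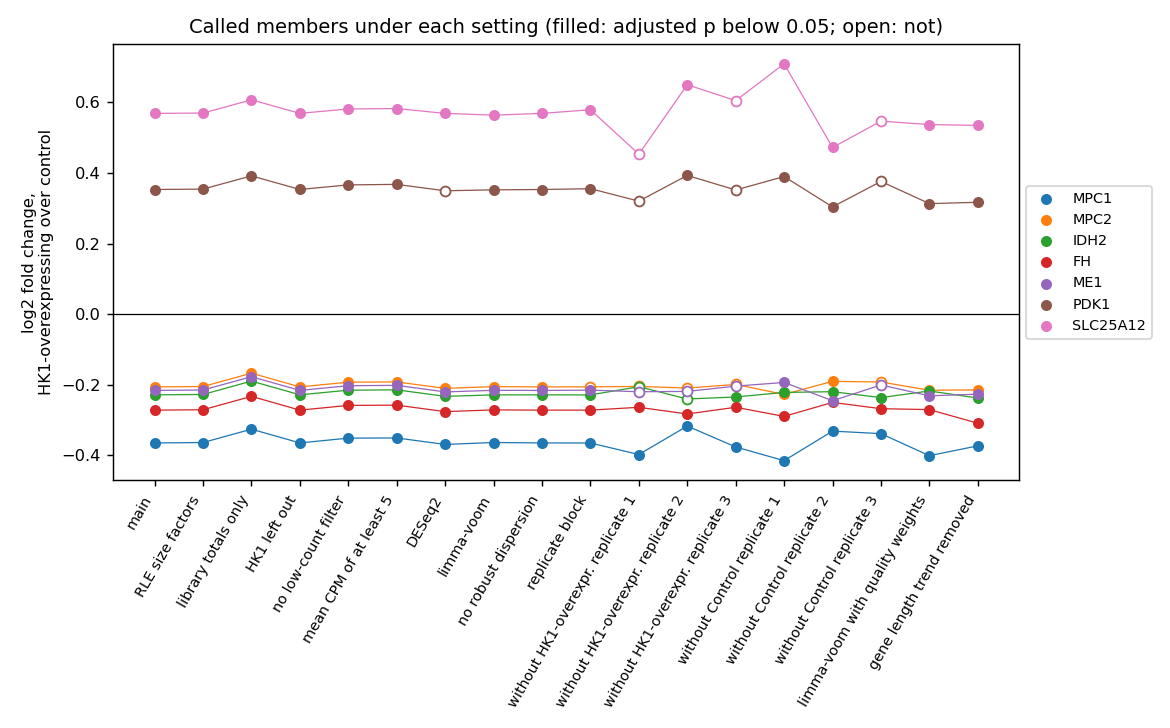
Log2 fold change (HK1-overexpressing over control) of the 7 called members under the main test and 17 alternatives along the x axis, filled where the adjusted p was below 0.05 and open where it was not. The lines do not cross 0; MPC1 and FH are filled throughout, and open points gather where a single library is left out.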

How the data were processed

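Counts per gene were deposited as 1 table with 1 column for each of the 6 libraries. TRIZOL extraction and a Stranded mRNA Prep kit are given per the labels' protocols. The authors made these counts with featureCounts 1.5.3 on read pairs, summing exons of each GENCODE 47 gene name, per the file headers. Trim Galore, Subread and the build hg38 are named in the submitters' processing notes. The recorded command sets no option for strand, multi-mapping or overlapping genes, so overlapping genes and near-identical copies are uncertain. Among the members, the largest shares of exon bases overlapping another gene were 46.6% in SLC25A10, 38.8% in IDH3A and 38.6% in PDK2. Exon lengths are those of the deposited table.

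The 6 columns hold whole numbers, and each was matched to its sample by title. Genes were kept by filterByExpr, scaled by TMM and tested across the whole table with edgeR 4.0.16 in R 4.3.3 (robust quasi-likelihood test, group as the only term, Benjamini-Hochberg over all tested genes at 0.05). Standard errors follow from the fitted change and its F statistic, and 95% intervals use the fit's degrees of freedom. Alternatives were other size factors, HK1 left out, other filters, DESeq2 1.42.0, limma-voom of limma 3.58.1, no robust dispersion, a replicate block and leaving out each library. Quality weights, removal of a trend with exon length and GENCODE 29 lengths were added after the data were seen. The test was tried on simulated data. The members and gene lists were chosen with earlier results of these data known. Called members and the member of smallest p in each role are given in every library, and called genes of the other lists, up to 4 a list, or the gene of smallest p where none was called; other members are named to cover each role, having seen their values. Counts limit precision most for PDK2 and PDK4. Promoters came from RefSeq tables of GRCh38.p14; genome sequence was not used here. 1 called gene of the other lists is not reported here.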

Additional observations from a re-analysis of the deposited data

How the results depend on the processing

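The 7 member calls, 2 higher and 5 lower, stayed at 7 with other size factors, library totals only, HK1 left out, either filter, limma-voom, no robust dispersion and without control replicate 2. They numbered 6 with DESeq2, where 1 was higher, and 6 with the replicate block. They numbered 8 with quality weights or the length trend removed. Leaving out single libraries gave 2 to 10 members, 0 to 3 higher and 2 to 7 lower, and 1 to 6 of the other pathway genes in place of 5, which numbered 2 with DESeq2. Over all genes it gave 536 to 2257 calls in place of 1342, 286 to 1172 higher and 250 to 1085 lower. Library totals only gave 907 higher and 462 lower in place of 648 and 694, and 1048 were lower with quality weights and 1075 with the length trend removed. SDHD, not called, changed sign with library totals only (log2 0.0014) and without HK1-overexpressing replicate 3, and leaving out single libraries put it between -0.09357 and 0.01006. The cause of these shifts was not tested. Deviations of control replicates 1 and 2 from their group mean ran with exon length in opposite directions. Their slopes were 0.0257 and -0.0225 log2 CPM per doubling of length. Control replicate 3 had -0.00323, and HK1-overexpressing libraries had -0.0022 to 0.00306. The part of this trend in the shifts was not tested. The level of IDH1 in controls was 409.1 CPM per kilobase with GENCODE 29 lengths. Over all genes the replicate numbers showed little pairing: same-numbered libraries deviated from their group means with correlations of -0.00927, 0.0514 and -0.0513. The replicate block took the call from MPC2 and GLDC and moved the count over all genes to 1074. It lowered the edgeR adjusted p of SLC25A12 from 0.0199 to 0.00471 and that of PPARGC1A from 0.0489 to 0.0305. Counts between replicates differed by more than sampling noise, with a chi-square per degree of freedom of 1.58 to 2.28 between HK1-overexpressing and 4.94 to 11 between control pairs, so each library was kept as its own sample.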
